A study of Mus musculus with 6 samples.

Results

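The genes described here are 49 enzymes, enzyme subunits and regulators of amino acid breakdown, chosen by symbol from a fixed list, and all 49 were found among the 23284 genes in the count tables. They were followed in liver RNA of C57BL/6 mice aged 8 weeks. After an overnight fast the mice received either vehicle or 1 mg/kg FGF19, and the livers were taken 6 h later with the fast still going on. There were 3 vehicle and 3 FGF19 libraries, and the study's methods give 3 mice per group and describe the mice as male. No allele or transgene was involved, both groups were fasted, and a single dose and a single time were sampled, so the values do not speak to fed mice or to other times. Of the 49 genes, 48 had enough counts to be tested. The question is how the routes that take amino acids apart stand in a fasted liver that is given FGF19.

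During a fast the liver takes up amino acids released from muscle, removes their nitrogen for the urea cycle and turns the carbon skeletons into glucose, ketone bodies or acetyl-CoA. Most of the enzymes sit in hepatocytes, and many of their genes are known to respond to glucagon, glucocorticoids and feeding. FGF19 is the human form of a gut hormone, FGF15 in mice, which is released after a meal when bile acids activate the receptor FXR in the ileum. It reaches hepatocytes through a receptor complex of FGFR4 and β-Klotho, and it is best known for lowering bile acid synthesis.

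The libraries held between 18994654 and 22920056 counts on genes, and a count of 0 allows a level of up to 0.131 to 0.158 CPM, the read count of a gene scaled to the size of its library. This limit covers counting error only. Cyp7a1, the rate-limiting enzyme of bile acid synthesis and a known FGF19 target, was at 222 to 310 CPM in the vehicle libraries and at 9.35 to 12.4 CPM in the FGF19 libraries, a log2 fold change of -4.56 (adjusted p = 9.41e-07, edgeR's quasi-likelihood test). The hepatocyte markers Alb, Ttr, Apoa1, Serpina1c and Cps1 were abundant in every library, with a summed level of 92327 to 97153 CPM after vehicle and 84456 to 96256 CPM after FGF19, and the 3 kidney markers had 1 count in all, of Slc34a1 in FGF19 replicate 2. The 5 hepatocyte markers all had a lower mean after FGF19, with a median log2 fold change of -0.16, and none passed an adjusted p of 0.05 in edgeR's quasi-likelihood test or DESeq2, while 1 had an unadjusted p under 0.05. The summed level of 6 neutrophil and monocyte markers was 4.19 to 6.40 CPM after vehicle and 16.2 to 17.7 CPM after FGF19. In the 4 that could be tested every FGF19 library lay above every vehicle library, and 3 were called higher, beside 4.56% of all genes. These were Itgam, Cd14 and S100a9, with log2 fold changes of 2.85, 1.41 and 2.16 (adjusted p = 0.00101, 0.00300 and 0.0292, edgeR's quasi-likelihood test), from low vehicle levels. Summed Kupffer cell markers overlapped, at 216 to 266 CPM and 186 to 240.0 CPM, and summed liver endothelial markers were at 158 to 163 CPM and 143 to 150.2 CPM. The 4 cholangiocyte markers all had a lower mean, with a median log2 fold change of -0.40, and their sum was 64.1 to 74.3 CPM after vehicle and 45.3 to 72.1 CPM after FGF19. The 4 stellate cell markers had means on both sides, with sums of 182 to 250.4 CPM and 174 to 222 CPM. Of the red blood cell markers, Hba-a1 and Hbb-b1 were at 0 in every library. They share 99.5% and 96.8% of their exonic bases with Hba-a2 and Hbb-b2, and reads that overlapped more than 1 gene were left out. These zeros therefore cannot be read as absence of haemoglobin RNA. Alas2 was at 57.2 to 78.6 CPM after vehicle and 43.6 to 57.5 CPM after FGF19 (adjusted p = 0.0645, edgeR's quasi-likelihood test). The part of these shifts in the values below was not tested. In whole liver, fewer cells of a type and less RNA per cell cannot be told apart.

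After FGF19, 41 of the 48 tested members had a lower mean and 7 had a higher mean. Across all 12559 genes tested, 50.1% had a lower mean, and among the 7543 genes with a mean of at least 10 CPM, a level that every tested member reached, 55.1% did. The median log2 fold change of the members was -0.21, beside -0.00076 over all genes and -0.03 over the genes of at least 10 CPM. On the linear scale the median member was 13.8% below its vehicle level. In 21 of the 48 members every FGF19 library lay below every vehicle library, where 13.8% of all genes and 18% of the more abundant genes did so, and in 2 members, Kmo and Agxt, every FGF19 library lay above, as in 14.5% of all genes and 14% of the more abundant ones. Agxt was named after its values had been seen.

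Of the 48 members, 8 fell at an adjusted p under 0.05, which is 16.7%, beside 2.84% of all genes tested and 3.86% of the genes of at least 10 CPM. They were Afmid, Csad, Prodh2, Hgd, Sds, Uroc1, Hibch and Kynu, and they belong to 7 of the 9 routes described below. No member rose in edgeR's quasi-likelihood test, where 4.56% of all genes and 5.16% of the genes of at least 10 CPM did, although 2 members had a higher mean at an unadjusted p under 0.05, and none rose in DESeq2 or limma-voom. At an unadjusted p under 0.01, the threshold the study used, 10 members fell, Gcsh and Mcee in addition, beside 4.98% of all genes and 6.88% of those of at least 10 CPM. No member rose at that threshold, where 6.2% of all genes and 6.79% of the more abundant genes did. The count of 8 depended on which libraries were kept. It was 1, Afmid, without vehicle replicate 1, without vehicle replicate 3, without FGF19 replicate 1 or without FGF19 replicate 2, which is 2.08% of the members, and the share of all genes called lower also went down in these fits, to 1.32%, 0.840%, 0.930% and 0.719%. It was 5 without vehicle replicate 2, which is 10.4% of the members, beside 1.59% of all genes called lower. It was 21 without FGF19 replicate 3, and in that last fit the share of all genes called lower also went up, to 7.30%.

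**Figure D1:**
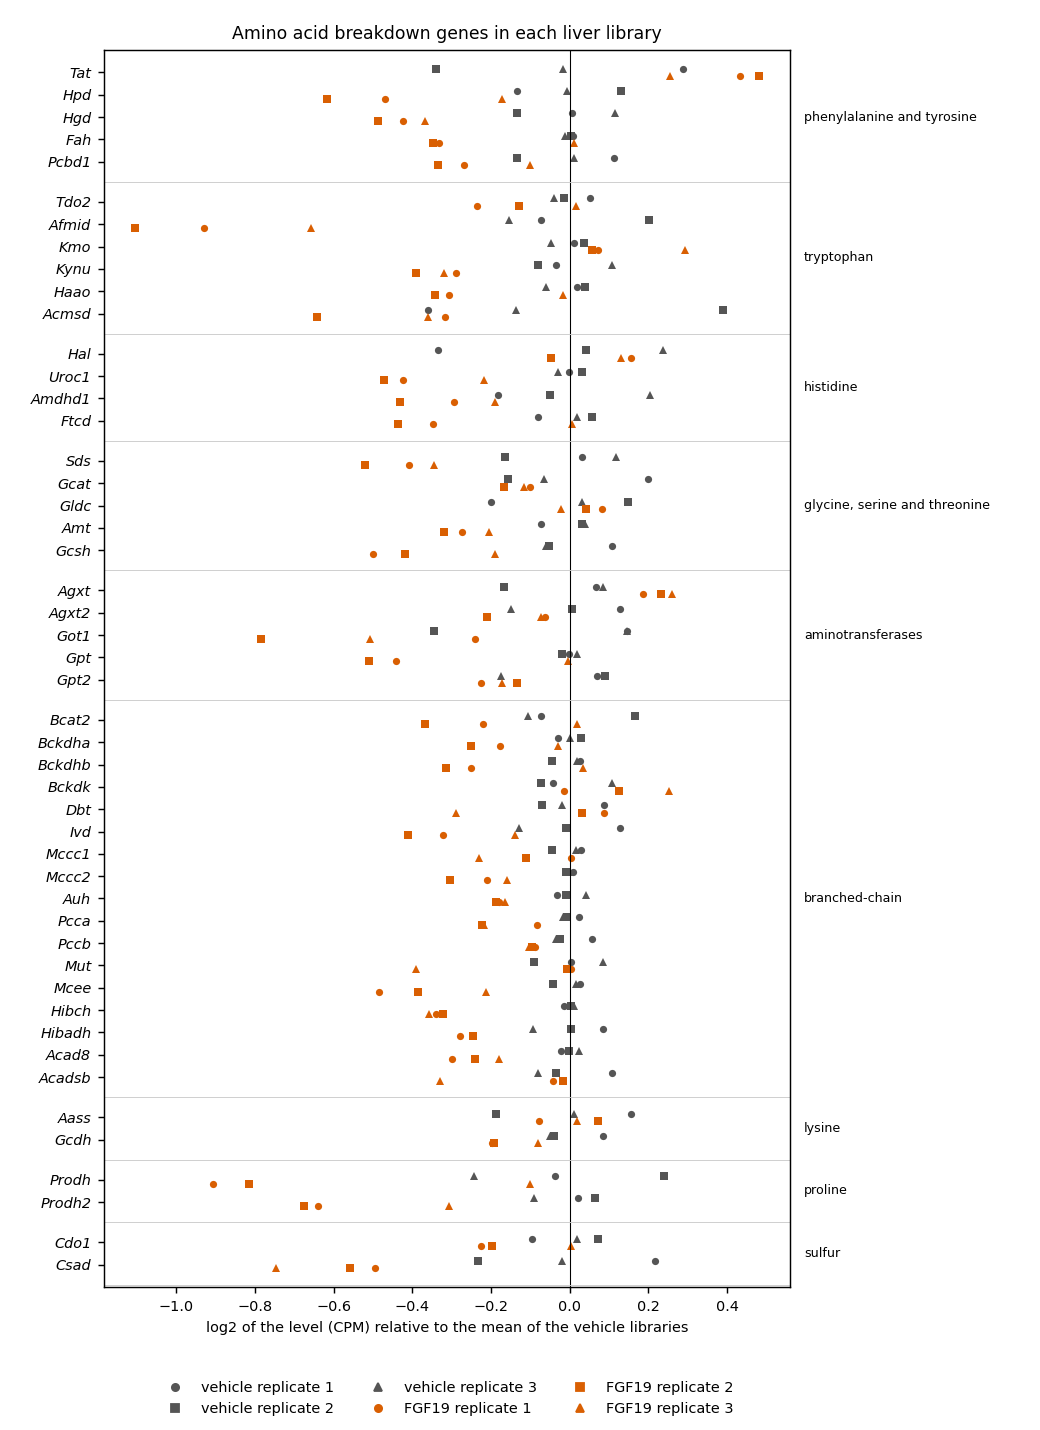
Level of each of the 48 tested members in each of the 6 libraries, as log2 of the CPM relative to the mean of the 3 vehicle libraries, with members ordered by route. Grey symbols are vehicle libraries and orange symbols FGF19 libraries; most orange symbols lie left of 0, and FGF19 replicate 3, drawn as an orange triangle, lies nearest to the vehicle mean in 30 members.

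The FGF19 libraries differed among themselves in how far the members lay below vehicle. The median member was 15.7% below the mean of the vehicle libraries in FGF19 replicate 1, 19.3% below in FGF19 replicate 2 and 10.6% below in FGF19 replicate 3. FGF19 replicate 3 was the FGF19 library nearest to the vehicle mean in 30 of the 48 members, or 62.5%, and in 41.2% of all genes tested. The vehicle libraries lay within 1.61% of the mean of the other vehicle libraries for the median member. The median coefficient of variation of a member was 6.41% among vehicle libraries and 8.70% among FGF19 libraries.

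**Figure D2:**
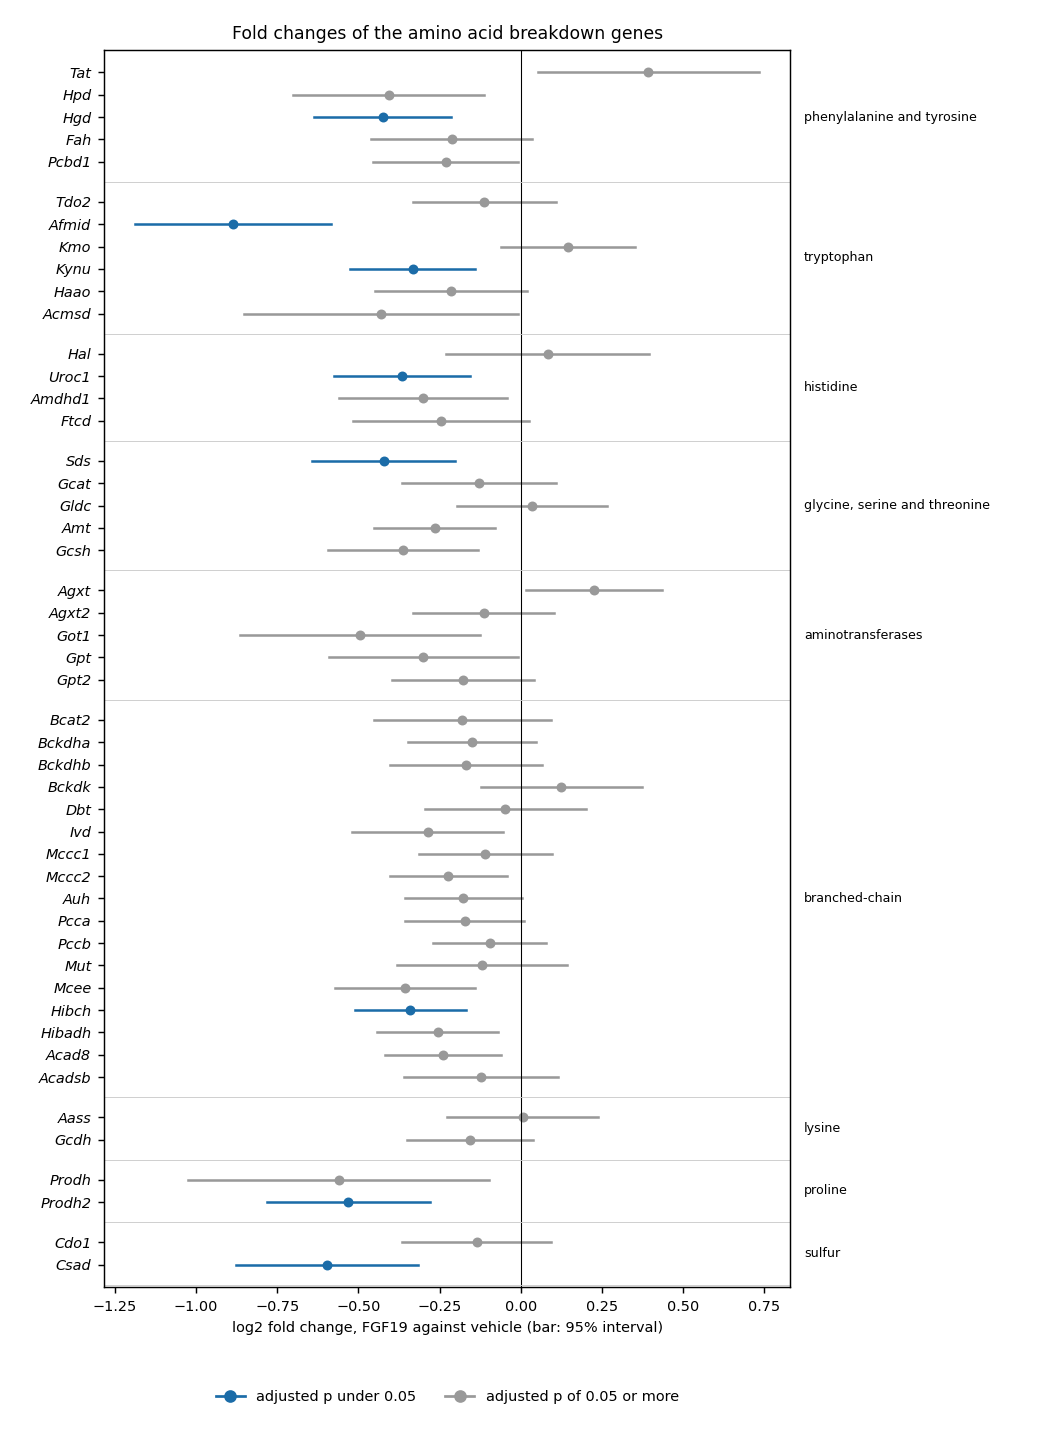
Log2 fold change of each tested member after FGF19 with its 95% interval, from edgeR's quasi-likelihood test on 3 vehicle and 3 FGF19 libraries, ordered by route. The 8 members in blue passed an adjusted p of 0.05, all of them on the lower side, and Afmid lies farthest from 0 at -0.89.

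The study examined CpG methylation at promoters of lipid genes. The count of CpG pairs in the 250 bases before each member's annotated start was read from the mouse genome build mm9, the build of the count tables. The 8 members that fell had a median of 3 CpG pairs in this stretch, with a range of 0 to 19. The 49 members had a median of 8, the genes tested 16 and all genes 10. Of the 8 that fell, the pair with the most CpG and a gene with none are shown to give that range, 5′ to 3′ on the strand of the gene, with the CpG pairs in capitals:
Hibch, chr1:52901640-52901889 (+): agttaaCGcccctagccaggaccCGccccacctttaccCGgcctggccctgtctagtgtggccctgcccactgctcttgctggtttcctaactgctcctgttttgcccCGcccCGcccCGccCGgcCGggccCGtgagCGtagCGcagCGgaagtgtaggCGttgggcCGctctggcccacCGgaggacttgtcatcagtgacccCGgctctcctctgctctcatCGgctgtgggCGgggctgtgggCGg
Afmid, chr11:117686983-117687232 (+): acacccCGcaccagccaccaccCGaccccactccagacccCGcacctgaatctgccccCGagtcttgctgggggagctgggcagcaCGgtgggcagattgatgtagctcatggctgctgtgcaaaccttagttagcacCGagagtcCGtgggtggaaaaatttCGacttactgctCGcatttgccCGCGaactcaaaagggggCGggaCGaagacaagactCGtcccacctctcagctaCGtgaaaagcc
Uroc1, chr6:90283033-90283282 (+): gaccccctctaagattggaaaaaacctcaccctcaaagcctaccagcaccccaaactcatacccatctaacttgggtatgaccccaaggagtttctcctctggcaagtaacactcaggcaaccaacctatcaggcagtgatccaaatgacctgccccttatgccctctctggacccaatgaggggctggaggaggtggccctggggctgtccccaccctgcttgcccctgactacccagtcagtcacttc

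Hibch holds 19 CpG pairs, Afmid 15 and Uroc1 none, and all 3 fell after FGF19. Methylation of these stretches was not measured in the data used here. The same windows were searched on both strands for the letters of known liver response elements. The cyclic AMP response element TGACGTCA and the C/EBP element TTGCGCAA were in none of the 49 member windows, and were in 2.05% and 0.195% of all windows and in 2.69% and 0.255% of the windows of genes tested. The short form TGACG, which the full cyclic AMP element contains, was in 7 members, or 14.3%, beside 20.5% of all windows and 26.7% of the windows of genes tested. The TATA box TATAAA was in 6 members, Hgd, Tdo2, Hal, Ftcd, Agxt2 and Bckdk, or 12.2%, beside 12% of all windows and 6.48% of the windows of genes tested. The glucocorticoid receptor letters AGAACA were in 5 members, or 10.2%, beside 13.9% of all windows and 10.4% of those of genes tested, the STAT3 letters TTCNNNGAA in 4 members, or 8.16%, beside 6.84% and 5.97%, and the forkhead letters TGTTTAC and the HNF4 letters CAAAGTCCA in 1 member each, or 2.04%, beside 2.7% and 0.42% of all windows and 2.25% and 0.446% of those of genes tested. Of the 8 members that fell, 1, Hgd, held any of these letters, the TATA box. The share of all windows that hold any of them was not computed, so this count has no background beside it. A match is not a binding site, and a missing match covers this window only.

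Tyrosine, formed from phenylalanine, is taken apart by Tat, Hpd, Hgd and Fah in that order, and Pcbd1 recycles the pterin cofactor of phenylalanine hydroxylation. In this route 1 of 5 members fell, 4 had a lower mean, and the median log2 fold change was -0.23. Of all genes 2.84% fell and 50.1% had a lower mean, and of the genes of at least 10 CPM 3.86% and 55.1%. Hgd, homogentisate dioxygenase, which opens the aromatic ring, was at 822, 747 and 888 CPM in the vehicle libraries and at 610.1, 584 and 635 CPM in the FGF19 libraries. Every FGF19 library was below every vehicle library, and Hgd fell by 25.5%, with a log2 fold change of -0.43 ± 0.09 (SE) and an adjusted p of 0.0270, which ranged from 0.0158 to 0.13 when 1 library was left out. Its gene lies at chr16:37580239-37632112 on the plus strand of mm9.

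Hpd, which makes homogentisate and had the highest level per length of all members, was at 2738 ± 252 (SD, n = 3) RPKM, the CPM divided by the exon length in kilobases, after vehicle and at 2065 ± 332 RPKM after FGF19. In CPM it was at 3399.5, 4085 and 3712 after vehicle and 2695, 2435 and 3315 after FGF19, so the groups did not overlap, but FGF19 replicate 3 was close to vehicle replicate 1. Its log2 fold change of -0.41 ± 0.13 had an adjusted p of 0.0987, and DESeq2 called it lower. When 1 library was left out the adjusted p ranged from 0.0117, without FGF19 replicate 3, where Hpd was called lower, to 0.335. Fah, the last enzyme of the route, was at 707 to 717 CPM after vehicle and at 566, 560.2 and 719 CPM after FGF19, so a single FGF19 library was at the vehicle level. Pcbd1 had a log2 fold change of -0.23 and an adjusted p of 0.202.

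Tat, the aminotransferase that starts tyrosine breakdown and a classical glucocorticoid target, went the other way, and was named after its values had been seen. It was at 3025, 1956 and 2445 CPM after vehicle and at 3344, 3457 and 2952 CPM after FGF19, so that FGF19 replicate 3 lay below vehicle replicate 1. Its log2 fold change was 0.39 ± 0.15, with an adjusted p of 0.157, and it was not called in any alternative. The first step and the later steps of this route thus had means on opposite sides of vehicle, and the difference between them was not tested.

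In the kynurenine route of tryptophan 2 of 6 members fell, 5 had a lower mean, and the median log2 fold change was -0.27. Beside this, 2.84% of all genes and 3.86% of those of at least 10 CPM fell, and 50.1% and 55.1% had a lower mean. Afmid, the formamidase that converts N-formylkynurenine to kynurenine, was at 268, 324 and 253 CPM in the vehicle libraries and at 148, 131 and 179 CPM in the FGF19 libraries. The groups were far apart, with the highest FGF19 library well below the lowest vehicle library. Afmid fell by 45.9%, a log2 fold change of -0.89 ± 0.13 with a 95% interval of -1.19 to -0.58, and its adjusted p was 0.00497, the smallest among the members. It remained called in each fit that left out 1 library, with adjusted p between 0.00167 and 0.0272. Afmid lies at chr11:117687233-117701222 on the plus strand, and 3.77% of its exonic bases overlap Tk1 on the opposite strand, where reads of either gene were not counted.

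Kynu, kynureninase, which cleaves kynurenine and its hydroxylated form, was at 181, 175 and 199 CPM after vehicle and at 151, 141 and 148 CPM after FGF19. The groups did not overlap, and Kynu fell by 20.6%, with a log2 fold change of -0.33 ± 0.09 and an adjusted p of 0.0479. The adjusted p lay between 0.0327 and 0.197 when 1 library was left out, and the call was also lost without the filter on low counts. The gene spans chr2:43410849-43538235 on the plus strand.

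The remaining members of the route frame these 2 steps. Tdo2, tryptophan dioxygenase, which opens the route and had its highest level per length, was at 2499, 2389 and 2346 CPM after vehicle and at 2047, 2205 and 2439 CPM after FGF19. The groups overlapped, and the log2 fold change of -0.11 ± 0.10 had an adjusted p of 0.552 and ranged from -0.18 to -0.05 when 1 library was left out. Kmo, the monooxygenase between Afmid and Kynu, was at 270.0 to 286 CPM after vehicle and at 290.5 to 342 CPM after FGF19, a log2 fold change of 0.14 with an adjusted p of 0.399. Haao and Acmsd, which act after Kynu, had log2 fold changes of -0.21 and -0.43 with adjusted p of 0.256 and 0.209, and Acmsd was the least abundant tested member in CPM, with 291 and 248 counts in its lowest vehicle and FGF19 libraries.

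Histidine is broken down to glutamate by Hal, Uroc1, Amdhd1 and Ftcd, and the last of these passes a formimino group to folate. In this route 1 of 4 members fell and 3 had a lower mean, with a median log2 fold change of -0.27. Beside this, 2.84% of all genes and 3.86% of those of at least 10 CPM fell, and 50.1% and 55.1% had a lower mean. Uroc1, urocanase, was at 433, 443 and 425 CPM after vehicle and at 323, 313 and 373 CPM after FGF19. The groups did not overlap, and Uroc1 fell by 22.4%, a log2 fold change of -0.37 ± 0.09 with an adjusted p of 0.0452, or 0.00603 to 0.198 when 1 library was left out. It lies at chr6:90283283-90314542 on the plus strand.

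Hal, histidine ammonia-lyase, the first step and the member of the route with the highest level per length, was at 495, 643 and 736 CPM after vehicle and at 696, 605 and 684 CPM after FGF19. The FGF19 libraries lay inside the vehicle range, and the log2 fold change of 0.08 ± 0.14 turned to -0.06 without vehicle replicate 1. Amdhd1 had a log2 fold change of -0.30 (adjusted p = 0.153) with no overlap, and Ftcd one of -0.25 (adjusted p = 0.264), with FGF19 replicate 3 at 512 CPM inside the vehicle range of 482 to 531 CPM.

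Among the genes of glycine, serine and threonine breakdown 1 of the 5 tested fell, 4 had a lower mean, and the median log2 fold change was -0.27. Beside this, 2.84% of all genes and 3.86% of those of at least 10 CPM fell, and 50.1% and 55.1% had a lower mean. Sds, serine dehydratase, which releases pyruvate from serine and is known as a gluconeogenic enzyme of the fasted liver, was at 280, 244 and 297 CPM after vehicle and at 206, 191 and 215 CPM after FGF19. The groups did not overlap, and Sds fell by 25.4%, a log2 fold change of -0.42 ± 0.10 with an adjusted p of 0.0328, or 0.0188 to 0.147 when 1 library was left out. It lies at chr5:120926556-120933914 on the plus strand, and 1.12% of its exonic bases overlap Plbd2.

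The glycine cleavage system, which splits glycine in mitochondria and hands a carbon to folate, is built from Gldc, Amt, Gcsh and a subunit it shares with other complexes, Dld. Gcsh, the lipoyl carrier, was at 96.9, 86.7 and 86.3 CPM after vehicle and at 63.6, 67.3 and 78.9 CPM after FGF19, with no overlap. Its log2 fold change of -0.36 ± 0.10 had an unadjusted p of 0.00600 and an adjusted p of 0.0680, and DESeq2 (adjusted p = 0.0356), the likelihood ratio test (0.0385) and the fit without FGF19 replicate 3 (0.00999) called it lower. Amt, the aminomethyltransferase, also had no overlap (log2 fold change -0.27, adjusted p = 0.0902), whereas Gldc, the decarboxylase, had a log2 fold change of 0.04 with an adjusted p of 0.875. Gcat, which acts in threonine breakdown, had a log2 fold change of -0.13 with an adjusted p of 0.529, and 12.2% of its exonic bases overlap Galr3. Tdh, threonine dehydrogenase, was the member that could not be tested, with 1 count in FGF19 replicate 3 and none in the other libraries.

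The aminotransferases of alanine, aspartate and glyoxylate move amino groups between amino acids and keto acids, and none of their 5 genes passed an adjusted p of 0.05 in edgeR's quasi-likelihood test, while 2 with a lower mean and 1 with a higher mean had an unadjusted p under 0.05. DESeq2 called 1, Got1, lower, as did the fit without vehicle replicate 2 (adjusted p = 0.0453) and the fit with the replicate block. Without FGF19 replicate 3 Gpt was called lower. Of the genes of at least 10 CPM 3.86% fell and 5.16% rose. The median log2 fold change was -0.18. Got1, the cytosolic aspartate aminotransferase, was at 541.5, 385 and 541.8 CPM after vehicle and at 414, 284 and 344 CPM after FGF19. FGF19 replicate 1 lay above vehicle replicate 2, so the groups overlapped, and the log2 fold change of -0.49 ± 0.16 had an adjusted p of 0.108.

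Gpt, an alanine aminotransferase, was at 361 to 371 CPM after vehicle and at 269, 257 and 365 CPM after FGF19, with FGF19 replicate 3 at the vehicle level and a log2 fold change of -0.30 (adjusted p = 0.204). Gpt2, its mitochondrial form, and Agxt2 had log2 fold changes of -0.18 and -0.11. Agxt, which detoxifies glyoxylate in peroxisomes, was at 297, 253 and 301 CPM after vehicle and at 323, 333 and 340.0 CPM after FGF19. Every FGF19 library was above every vehicle library, the log2 fold change was 0.23 ± 0.09, and its adjusted p of 0.185 did not pass.

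The branched-chain amino acids leucine, isoleucine and valine are transaminated mostly outside the liver, and the liver is known for the oxidative steps that follow. In this route 16 of 17 members had a lower mean and 9 had no overlap between groups, but 1 fell at an adjusted p under 0.05, and the median log2 fold change was -0.17. Among the genes of at least 10 CPM, 18% had FGF19 libraries below all vehicle libraries, beside 52.9% of the route, and 55.1% had a lower mean. Of those genes 3.86% fell, so that the share of the route that fell, 5.88%, was near the background with all 6 libraries. Without FGF19 replicate 3, Bckdhb, Ivd, Mccc2, Mcee, Hibch and Acad8 were called lower, in a fit where 7.30% of all genes were. The 5 genes of transamination and of the dehydrogenase that commits the keto acids to oxidation, Bcat2, Bckdha, Bckdhb, Dbt and the inhibitory kinase Bckdk, all had overlapping groups, with log2 fold changes between -0.18 and 0.13. Bckdha, whose product is a subunit of the dehydrogenase and which had the highest level per length of the route, was at 302.0 to 315 CPM after vehicle and at 259 to 302.2 CPM after FGF19 (log2 fold change -0.15 ± 0.09, adjusted p = 0.356, and -0.21 to -0.09 when 1 library was left out). Bckdk, which phosphorylates and inhibits the dehydrogenase, had a log2 fold change of 0.13 (adjusted p = 0.557).

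Downstream of the dehydrogenase, 9 of the 12 members had FGF19 libraries below all vehicle libraries, beside 13.8% of all genes and 18% of those of at least 10 CPM. In the leucine branch these were 3 of 4, Ivd, Mccc2 and Auh, with log2 fold changes of -0.29, -0.22 and -0.18, while Mccc1 overlapped. None of the 4 was called in edgeR's quasi-likelihood test or DESeq2 with all libraries, and 2 had an unadjusted p under 0.05. Without FGF19 replicate 3, Ivd and Mccc2 were called lower. In the valine and isoleucine branches they were 3 of 4, Hibch, Hibadh and Acad8, while Acadsb overlapped. Hibch, which releases the acid from hydroxyisobutyryl-CoA in valine breakdown, was at 88.7, 89.8 and 90.4 CPM after vehicle and at 70.8, 71.7 and 69.9 CPM after FGF19. Both groups were tight and lay apart, with 1522 to 1861 counts behind each value. Hibch fell by 21.0%, a log2 fold change of -0.34 ± 0.08 with an adjusted p of 0.0277, and the log2 fold change stayed between -0.35 and -0.33 when 1 library was left out, with adjusted p between 0.0166 and 0.118. Its gene lies at chr1:52901890-52977704 on the plus strand. Hibadh, the next enzyme of valine breakdown, and Acad8, a dehydrogenase that acts upstream of Hibch, had log2 fold changes of -0.26 and -0.24 and unadjusted p of 0.0123 and 0.0136, and neither passed after adjustment. Acad8, but not Hibadh, was called lower without FGF19 replicate 3.

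Isoleucine, valine, methionine and threonine converge on propionyl-CoA, which Pcca, Pccb, Mcee and Mut carry to succinyl-CoA. Here 3 of 4 members had every FGF19 library below every vehicle library, beside 13.8% of all genes and 18% of those of at least 10 CPM. None was called in edgeR's quasi-likelihood test, while 1, Mcee, had an unadjusted p under 0.05. DESeq2, the likelihood ratio test, the fit without TMM scaling and the fit without FGF19 replicate 3 called Mcee lower (adjusted p of 0.0402, 0.0314, 0.0451 and 0.0103). Mcee, methylmalonyl-CoA epimerase, was at 42.2, 40.2 and 41.8 CPM after vehicle and at 29.6, 31.7 and 35.7 CPM after FGF19. The groups lay apart, with a log2 fold change of -0.36 ± 0.10, an unadjusted p of 0.00434 and an adjusted p of 0.0553. Pcca and Pccb, the subunits of propionyl-CoA carboxylase, had small differences with no overlap, at -0.17 and -0.10 in log2, and Mut had one of -0.12, with FGF19 replicate 3 at 127 CPM beside 166 and 167 CPM in the other FGF19 libraries.

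In lysine breakdown neither of the 2 members was called or had an unadjusted p under 0.05, and DESeq2 called neither. Aass, which starts the route, had a log2 fold change of 0.01 (adjusted p = 0.984). Gcdh, glutaryl-CoA dehydrogenase, was at 609, 558 and 555 CPM after vehicle and at 501, 502 and 543 CPM after FGF19, with no overlap, a log2 fold change of -0.16 ± 0.09 and an adjusted p of 0.327.

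Proline and hydroxyproline are oxidised by Prodh and Prodh2, and 1 of these 2 fell, beside 2.84% of all genes and 3.86% of those of at least 10 CPM. Prodh2 was at 191, 197 and 177 CPM after vehicle and at 121, 118 and 152 CPM after FGF19. The groups did not overlap, and Prodh2 fell by 30.8%, a log2 fold change of -0.53 ± 0.11 with an adjusted p of 0.0214, or 0.00170 to 0.103 when 1 library was left out. It lies at chr7:31278677-31298421 on the plus strand. Prodh, proline dehydrogenase, had a similar log2 fold change of -0.56 ± 0.21 but a wide spread, at 193, 233 and 167 CPM after vehicle and 105, 112 and 184 CPM after FGF19. FGF19 replicate 3 lay inside the vehicle range, and the adjusted p of 0.141 became 0.00550 without that library, where the log2 fold change was -0.86. DESeq2 called Prodh lower with all 6 libraries (adjusted p = 0.0459).

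In sulfur amino acid breakdown, Cdo1 oxidises cysteine and Csad takes the product on towards taurine, which mice use to conjugate bile acids. Csad was at 587, 429 and 498 CPM after vehicle and at 358, 343 and 301 CPM after FGF19. The groups did not overlap, and Csad fell by 33.8%, a log2 fold change of -0.60 ± 0.12 with an adjusted p of 0.0211, or 0.0142 to 0.0814 when 1 library was left out. It lies at chr15:102007429-102019474 on the minus strand. Cdo1, second in level per length among all members at 1821 ± 108 (SD, n = 3) RPKM after vehicle, was at 2606, 2929.9 and 2822 CPM after vehicle and at 2382, 2430.5 and 2795 CPM after FGF19, so the groups overlapped, and its log2 fold change of -0.14 ± 0.10 had an adjusted p of 0.484 and ranged from -0.21 to -0.09 when 1 library was left out.

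**Figure D3:**
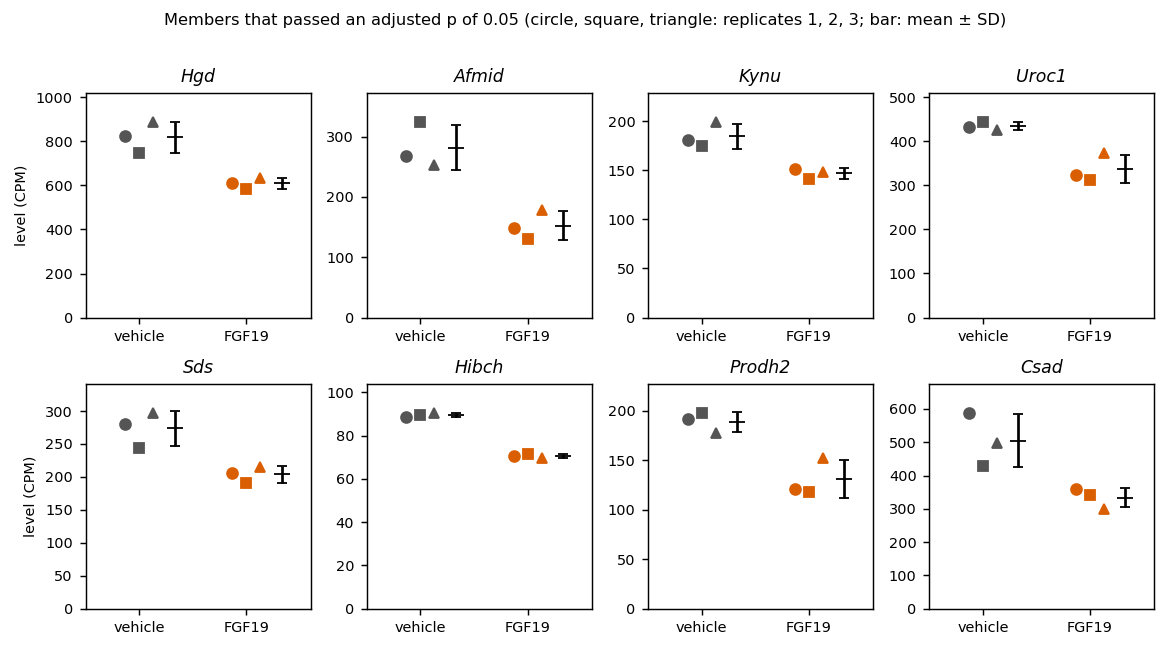
Level in CPM of the 8 members that passed an adjusted p of 0.05, in each of the 3 vehicle and 3 FGF19 libraries, with the mean and SD of each group drawn as a bar on axes that start at 0. In each panel the FGF19 libraries lie below the vehicle libraries, and Afmid has the widest relative gap, 282 CPM against 152 CPM in the mean.

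Summed per length over all 49 members, the level was 12549 ± 16.4 (SD, n = 3) RPKM after vehicle and 11079 ± 756 RPKM after FGF19, so the sum fell short of vehicle by 11.7% of its vehicle level in the mean. The libraries were at 12552, 12532 and 12564 RPKM after vehicle and at 10743, 10549 and 11945 RPKM after FGF19. The vehicle sums were nearly equal to each other and the FGF19 sums lay below all of them, but 3 against 3 libraries allow no two-sided exact permutation p below 0.1. Hpd, Cdo1, Tdo2 and Tat carry most of this sum, Hpd alone 20.3% of it.

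By route, the FGF19 sums lay below all vehicle sums for phenylalanine and tyrosine, for glycine, serine and threonine, for the branched-chain route, for proline and for sulfur. The mean differences were -11.4%, -17.9%, -12.7%, -31.4% and -11.7%. The sums overlapped for tryptophan, histidine, the aminotransferases and lysine, where FGF19 replicate 3 lay above the lowest vehicle library, and the mean differences were -10.1%, -10.4%, -11.7% and -6.93%. In tryptophan breakdown Tdo2 makes up 73.0% of the sum, so the sum follows Tdo2 and not Afmid. Differences between routes were not tested.

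**Figure D4:**
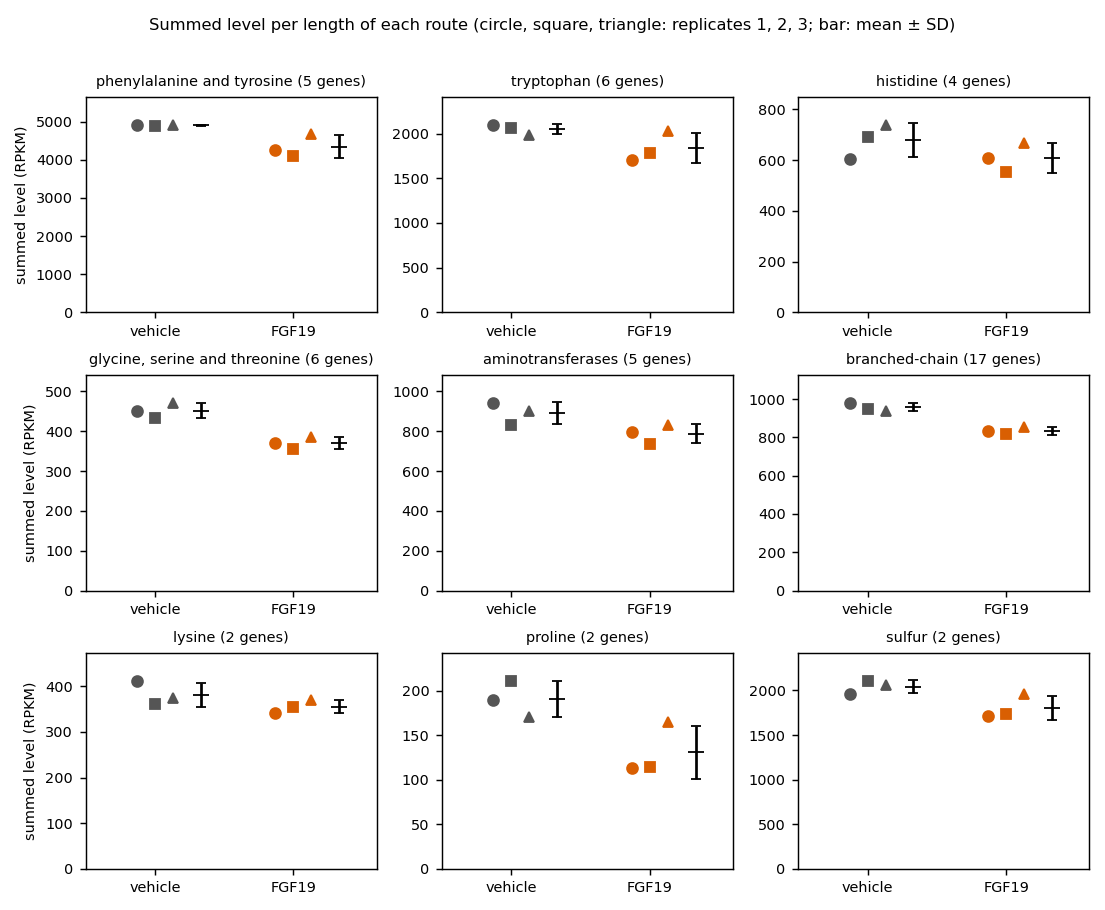
Summed level per length (RPKM) of the members of each of the 9 routes in each library, with the mean and SD of each group as a bar on axes that start at 0. The FGF19 libraries lie below all vehicle libraries in 5 of the 9 routes, and FGF19 replicate 3, the triangle, is the highest FGF19 library in 9 of the 9.

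A further 37 genes of amino acid breakdown outside the 49 were listed by pathway, and 36 of them were tested. In this list 31 had a lower mean, 7 fell, none rose at an adjusted p under 0.05, and 1 with a higher mean had an unadjusted p under 0.05, while DESeq2 called none higher. Of all genes tested 50.1% had a lower mean and 2.84% fell, and of the genes of at least 10 CPM 55.1% and 3.86%. Over this list the median log2 fold change was -0.25. Those that fell were Shmt1, Ahcy, Cth, Sardh, Gls2, Shmt2 and Qdpr. Shmt1 and Shmt2, the serine hydroxymethyltransferases that interconvert serine and glycine, had log2 fold changes of -0.59 (adjusted p = 0.00684) and -0.32 (adjusted p = 0.0424).

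Shmt1 was at 186, 150.1 and 161 CPM after vehicle and at 111, 108 and 111 CPM after FGF19, with no overlap. Ahcy, which hydrolyses S-adenosylhomocysteine, had a log2 fold change of -0.57 (adjusted p = 0.0202), and Cth, which makes cysteine from cystathionine, one of -0.60 (adjusted p = 0.0293). Sardh, sarcosine dehydrogenase, Gls2, the liver glutaminase, and Qdpr, which regenerates the pterin cofactor of phenylalanine hydroxylation, had log2 fold changes of -0.41, -0.37 and -0.38 with adjusted p of 0.0327, 0.0368 and 0.0425. Of these 7, Shmt1 kept its call in all 6 fits that left out 1 library. The count of 7 was 1 or 2 in 5 of these fits, and without FGF19 replicate 3 it was 17, 16 of them lower.

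Known glucocorticoid and glucagon response genes were read from a list of 10, since several members are classical targets of these hormones. None of the 10 was called in edgeR's quasi-likelihood test, none had an unadjusted p under 0.05, and DESeq2 called none. Their median log2 fold change was 0.08, with a range of -0.60 to 0.45. All 10 had overlapping groups, as did 9000 of the 12559 genes tested. Of all genes tested 2.84% fell and 4.56% rose, so 0 called of 10 is near these shares. Without FGF19 replicate 3, 3 of them were called higher, Igfbp1, Klf9 and Ppargc1a, which were named after their values had been seen, and in that fit 1015 of 12692 genes were called higher, beside 573 of 12559 with all libraries.

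Periportal hepatocytes are the zone of the liver lobule best known for amino acid breakdown. Of 6 periportal markers that are not members, 5 had FGF19 libraries below all vehicle libraries and 1, Gls2, fell, with a median log2 fold change of -0.36, whereas Pck1 overlapped. The lists share genes, so these are not all separate results. Gls2 and the pericentral marker Oat are also among the further genes of amino acid breakdown above, Cps1 is also a hepatocyte marker, and Pck1 is also a hormone response gene. Of all genes 13.8% lay below in this way and 2.84% fell, and of the genes of at least 10 CPM 18% and 3.86%. Of 6 pericentral markers 2 had FGF19 libraries below all vehicle libraries and none was called in edgeR's quasi-likelihood test, with 2 at an unadjusted p under 0.05, while DESeq2 and limma-voom called Cyp2e1 lower. The pericentral markers had a median log2 fold change of -0.09. On summed levels the picture differed. The pericentral sums did not overlap, at 11373 to 12307 CPM after vehicle and 8690 to 10358 CPM after FGF19. The periportal sums overlapped, at 12445 to 14084 CPM after vehicle and 11071 to 12742 CPM after FGF19. The periportal and pericentral medians were not compared by a test, and their part in the members' values was not tested.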

How the data were processed

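Liver RNA of 3 vehicle and 3 FGF19 libraries was read as paired 100-base reads. The submitters' processing notes name Trimmomatic 0.36, STAR 2.5.3a and mm9, while the study's methods name another version of STAR. The authors used featureCounts 1.5.2 to assign reads to exons, and the deposited values are raw counts per gene. Per the file headers, strand was not used, mates were counted separately, and reads that aligned to several places or overlapped more than 1 gene were left out, which lowers the counts of genes with close copies or overlapping neighbours. A deposited table of the authors' own fold changes and p-values was not used.

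Here the counts were filtered with filterByExpr, scaled by TMM and tested with edgeR 4.0.16's quasi-likelihood test in R 4.3.3, without covariates, with Benjamini-Hochberg adjustment over all 12559 genes. CPM and RPKM are TMM-scaled, and RPKM uses the exon length in the files. The SE of a log2 fold change is its size divided by the square root of F. Alternatives were DESeq2 1.42.0, limma-voom 3.58.1, the likelihood ratio test, other filters, no TMM scaling, a replicate block and each library left out. The scripts were tested on simulated data. The genes named are members called at either threshold, the highest and most changed member of each route, untested members, and called genes of the other lists. Other members are named with their values to account for the whole of each route, and those were chosen after their values were seen. Tf of the marker lists was not matched. The members, routes and lists were chosen with earlier results of these data known. The upstream windows hold the 250 bases before each gene's start in the files. The sequence of 1 other window is not reported here.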

Additional observations from a re-analysis of the deposited data

How the results depend on the processing

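The 41 members with a lower mean kept that count under DESeq2, the likelihood ratio test, limma-voom, no TMM scaling, both other filters and the replicate block, and it was 39 to 43 when 1 library was left out. The count of 8 members called was 13 with DESeq2, which called 4.13% of all genes lower, and ranged from 1 to 21 when 1 library was left out, where 0.719% to 7.30% of all genes were called lower; the other genes of amino acid breakdown went from 7 to 12 with DESeq2, to 11 at an unadjusted p under 0.01 and from 1 to 17 when 1 library was left out, and the hormone response genes from 0 to 3. Afmid was called under each setting run. With the replicate number as a block, 3 members, Afmid, Got1 and Csad, and 3 of the other genes of amino acid breakdown were called. Over all genes 164 in place of 357 were called lower in that fit. The deviations of libraries of the same number had correlations of -0.03, -0.18 and -0.18, beside -0.13 to 0.23 for libraries of different numbers. So few values cannot decide whether the numbers mark a pairing or a shared batch. When 1 library was left out the median log2 fold change lay between -0.27 and -0.17 over all members, -0.34 and -0.17 for phenylalanine and tyrosine, -0.33 and -0.19 for tryptophan, -0.26 and -0.13 for the aminotransferases, -0.21 and -0.16 for the branched-chain route and -0.75 and -0.45 for proline. The log2 fold change of Hal ranged from -0.059, without vehicle replicate 1, to 0.22, without vehicle replicate 3. Over all genes, 61.6% of calls were higher, beside 55.3% with DESeq2, 57.7% without TMM scaling, 69.3% with the block and 52.3% to 75.2% when 1 library was left out. The cause of these differences was not tested. Each tested member had at least 248 counts in every library, and Tdh had 1 count in all.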
